A study of Homo sapiens with 4 samples.

Results

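The genes described here build and specify an epithelial cell layer: junction proteins, keratins, epithelial surface proteins and proteases, and the transcription and splicing factors of epithelial cells. A list of 42 such genes was matched by symbol to the platform annotation of the value table. Of these, 40 were measured on a transcript cluster (a set of probes summarised as 1 value) annotated to that gene alone. OCLN was measured only on a cluster shared with its pseudogene OCLNP1, and no row carried the symbol ESRP1, which is not analysed here. The comparison was fitted over 21214 named transcript clusters, of which 19460 carried 1 symbol and stand for 18417 genes.

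The series compared OVCAR-3, an established human ovarian epithelial cancer cell line, after transfection with a vector without H1.3 (2 arrays) and after H1.3 overexpression (2 arrays, labelled H1.3(H)). H1.3 is a linker histone, a protein that binds where DNA enters and leaves the nucleosome. All cells were grown in the same serum-supplemented medium. The arrays of a group are labelled biological replicates, and the sources used here do not say whether they came from separate transfections or clones. The p-values therefore cover only the spread seen among 4 arrays, part of which may be technical. The gene for H1.3 itself, H1-3, stood at 8.65 and 7.88 (log2) with vector alone and at 7.47 and 7.69 on the H1.3-labelled arrays, a difference of -0.69 ± 0.24 (SE, limma adjusted p 0.319). This goes against the label without passing the test, and each direction below is that of the H1.3-labelled arrays relative to vector. The sources used here do not say if the H1-3 probes read an H1.3 insert.

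Epithelial cells hold to each other through adherens junctions, built on E-cadherin, through desmosomes, which anchor keratin filaments, and through tight junctions, in which claudins close the space between cells. Keratins assemble as pairs of a type I and a type II chain. Grainyhead-like, OVOL and ETS-family factors maintain the expression of such genes, ESRP proteins set epithelial splicing, and SNAI and ZEB factors repress many of the genes through E-box motifs. Ovarian carcinomas of the serous type commonly keep these epithelial features.

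The genes were not picked by sequence. Many are repressed through E-boxes, as said above, so the share of E-boxes among them is not independent of the choice. The E-box was searched as CAGGTG, on both strands, in the 250 bases before each start site of the RefSeq promoter table (GRCh38.p14). That table held 40 windows for 25 of the 42 genes. The E-box was found in 17 of the 40 windows (42.5%), against 17.5% of all 35116 windows of that length. Windows of 1 gene can overlap, and by gene the motif was found for 15 of the 25. The share by gene over all promoters was not counted, so 15 of 25 cannot be set against 17.5%. The GRHL motif AACCGGTT was in 0 of the 40 windows and in 0.117% of all, and the ETS motif ACCGGAAG in 1 of the 40 and 1.78% of all. Neither motif contains the E-box letters, and a match is a description of letters and not a binding site.

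Windows of 5 genes are shown 5′ to 3′ in the sense of the gene, with E-box letters in capitals. RAB25 and JUP are shown because they were among the lower genes, CLDN1 and CLDN16 because they lie at 1 locus and were both higher, and CRB3 because it held the most E-boxes (5) while its level hardly differed. The RAB25 window is chr1:156060910-156061159 (plus strand), that of JUP chr17:41785977-41786226 (minus strand), that of CLDN1 chr3:190322447-190322696 (minus strand), that of CLDN16 chr3:190290111-190290360 (plus strand) and that of CRB3 chr19:6464021-6464270 (plus strand).
RAB25: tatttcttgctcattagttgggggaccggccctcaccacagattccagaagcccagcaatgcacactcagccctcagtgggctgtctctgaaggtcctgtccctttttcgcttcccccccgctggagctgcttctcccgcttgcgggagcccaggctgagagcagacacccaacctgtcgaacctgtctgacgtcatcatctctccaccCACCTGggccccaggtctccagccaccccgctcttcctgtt
JUP: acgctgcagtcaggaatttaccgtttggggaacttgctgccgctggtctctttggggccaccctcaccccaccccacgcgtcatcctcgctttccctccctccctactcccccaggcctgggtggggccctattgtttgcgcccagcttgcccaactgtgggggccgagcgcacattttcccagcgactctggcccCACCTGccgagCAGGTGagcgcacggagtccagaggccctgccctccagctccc
CLDN1: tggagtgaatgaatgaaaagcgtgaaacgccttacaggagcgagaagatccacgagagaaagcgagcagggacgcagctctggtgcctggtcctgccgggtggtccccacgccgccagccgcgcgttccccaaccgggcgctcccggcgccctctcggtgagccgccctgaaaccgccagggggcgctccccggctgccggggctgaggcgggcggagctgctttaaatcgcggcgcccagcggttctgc
CLDN16: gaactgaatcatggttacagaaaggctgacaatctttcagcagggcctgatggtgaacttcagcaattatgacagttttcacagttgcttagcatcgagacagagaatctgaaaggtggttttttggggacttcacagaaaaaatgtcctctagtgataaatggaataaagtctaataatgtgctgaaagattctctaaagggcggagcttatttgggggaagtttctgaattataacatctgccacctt
CRB3: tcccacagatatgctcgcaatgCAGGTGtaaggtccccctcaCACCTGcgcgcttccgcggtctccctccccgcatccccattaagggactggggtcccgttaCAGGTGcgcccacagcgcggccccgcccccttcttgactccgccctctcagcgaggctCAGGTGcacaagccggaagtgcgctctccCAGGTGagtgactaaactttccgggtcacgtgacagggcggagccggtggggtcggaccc
The RAB25 window held 1 E-box, the JUP window 2 and those of CLDN1 and CLDN16 none. A second start site of JUP and a second of CLDN16 in the table also held none. The windows of RAB25, JUP, CLDN1 and CLDN16 were picked by direction, and other genes did not all split this way. MUC1 (difference 0.235) held 2 E-boxes in each window, ELF3 (0.26) held 1, and CLDN3 (-0.325) and CLDN12 (0.325) held none. No window was available for ST14 or EPCAM, the lowest of the 40 genes.

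The arrays carried the markers of an ovarian epithelial carcinoma line. All 9 epithelial and ovarian carcinoma markers (PAX8, MUC16, WT1, EPCAM, KRT7, KRT8, KRT18, KRT19 and CDH1) lay above the median level of the named clusters, 6.84, and their mean lay between 11.2 and 11.4 on each of the 4 arrays. Of the markers of other cells, 1 of 10 for fibroblasts, 0 of 10 for leukocytes, 0 of 8 for endothelium and 1 of 6 for mesothelium lay above that median, the mesothelial one being WT1, which is also an ovarian carcinoma marker. The mean of the fibroblast markers was 4.86 to 5.0 on the vector arrays and 4.87 to 4.99 on the H1.3-labelled arrays. Of the 40 epithelial genes, 39 lay above the median level, and the exception was OVOL1. EPCAM, KRT7, KRT8, KRT18, KRT19 and CDH1 are in both lists, so these counts are not separate.

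**Figure D1:**
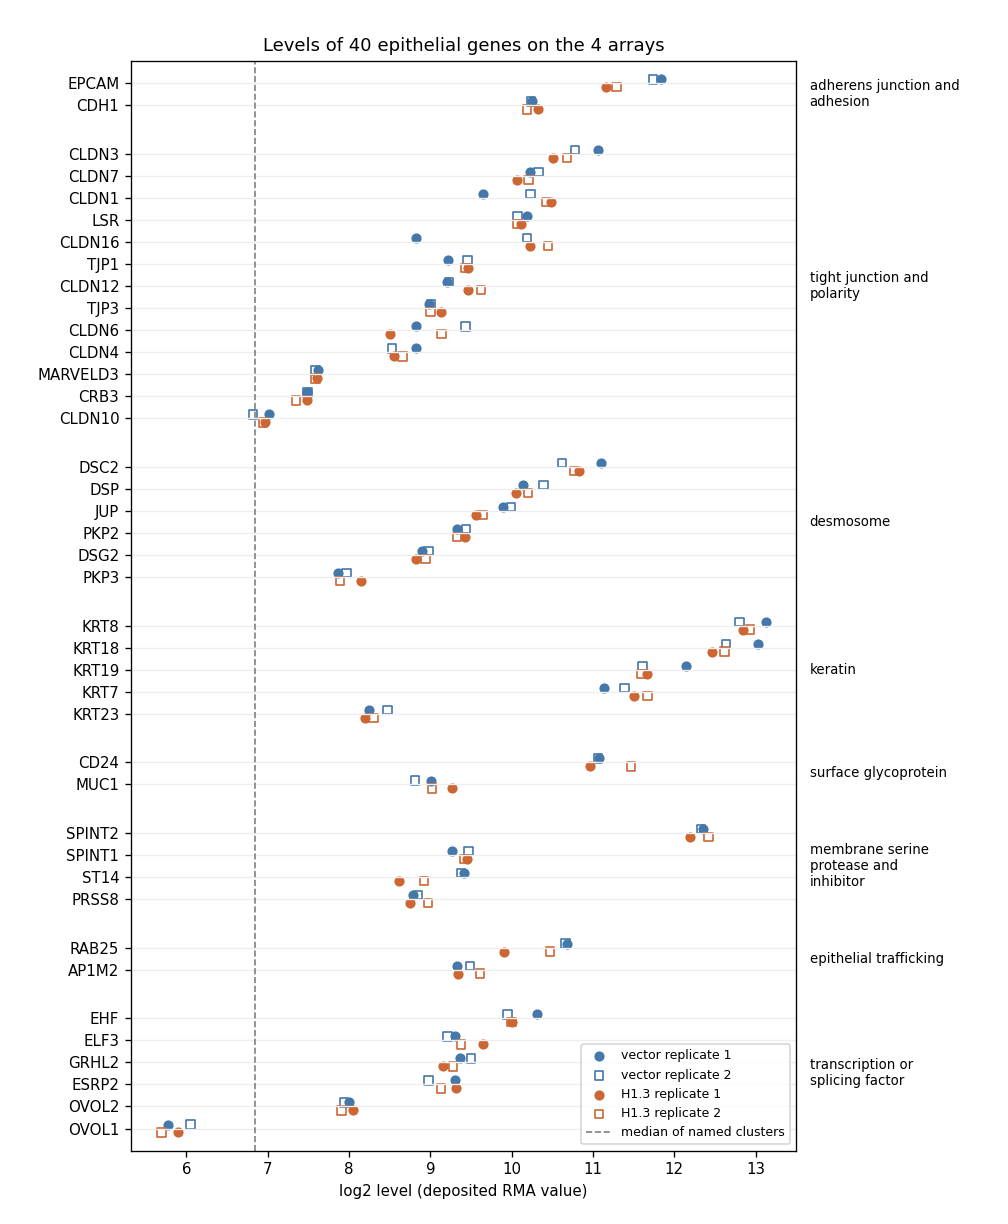
Log2 level (x axis, deposited RMA value) of each of the 40 epithelial genes (y axis, by role) on the 2 vector arrays (blue) and the 2 H1.3-labelled arrays (orange), with replicate 1 as filled circles and replicate 2 as open squares. Nearly all points lie right of the dashed line at the median of named clusters, 6.84, and for most genes the colours lie among each other. Levels of different genes rest on different probes and are not compared.

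Most epithelial genes differed little between the groups. No member passed limma's adjusted p under 0.05 in either direction, where 0.240% of all named clusters were called higher and 0.264% lower, 0.504% together. At an unadjusted p under 0.05, 2 of 40 were higher and 4 lower, 6 together, against 5.21% and 6.34% of all clusters, 11.5% together. The median difference over the 40 genes was -0.035, with 17 positive and 23 negative, and over all clusters it was 0.015. Values of the groups were apart for 14 of the 40 (35.0%), with 6 higher and 8 lower, against 21.2% and 19.4% of all clusters, 40.6% together. Among clusters at or above the median level, where 39 of the 40 lay, 15.1% had an unadjusted p under 0.05. Groups were apart in 47.6% of these clusters, and their median difference was -0.01. A difference of at least 0.5 in size was measured for 4 of the 40 (10%), ST14, EPCAM, CLDN1 and CLDN16, against 5.10% of all clusters and 6.47% of those at or above the median level. For CLDN1 and CLDN16 it fell below 0.5 without vector replicate 1, as given with these genes. Without H1.3 replicate 1, ST14 differed by -0.48 and CLDN1 by 0.48. EPCAM ran from -0.63 to -0.50 when each array was left out.

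The interval that 2 arrays per group allow matters for reading these counts. The 95% interval of a difference reached from 0.26 to 0.90 to each side over the 40 genes. On simulated arrays of this design over 21214 clusters, 2% of the changes of 0.5 and 66% of the changes of 1 (log2) were called. A difference below 1 was therefore often not detectable here, and a missed threshold does not show that levels were alike.

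**Figure D2:**
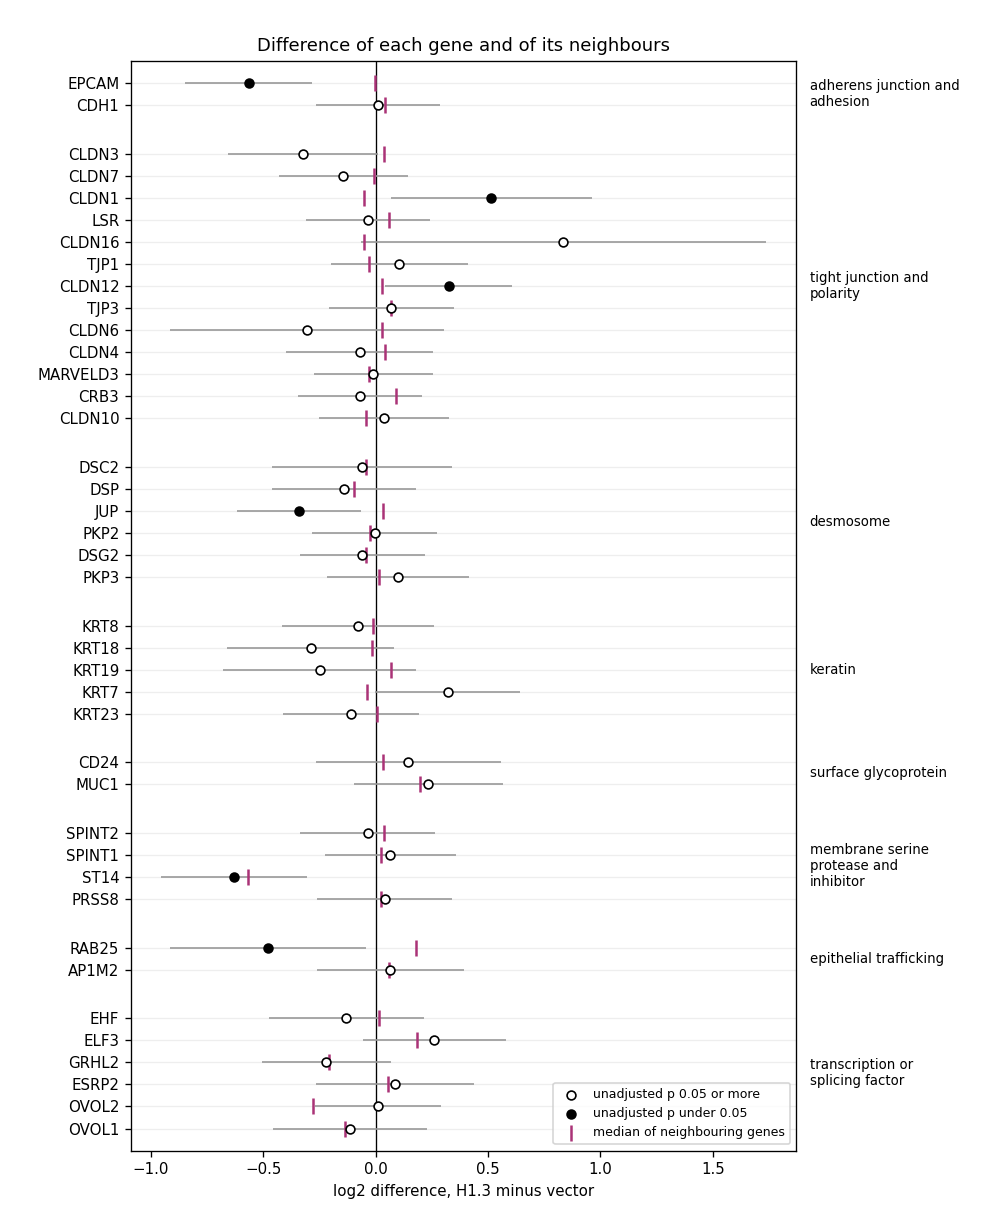
Log2 difference (x axis, H1.3-labelled arrays minus vector) of each epithelial gene (y axis, by role) as a point with its 95% interval from limma, filled where the unadjusted p was under 0.05. Purple ticks give the median difference of the expressed genes next to it on the chromosome. Most intervals cross 0, and the points of EPCAM, ST14, RAB25 and JUP lie left of 0 while those of CLDN1 and CLDN12 lie right of it.

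EPCAM, an adhesion molecule of epithelial cells that is widely used as a carcinoma surface marker, stood at 11.84 and 11.74 with vector alone and at 11.16 and 11.29 on the H1.3-labelled arrays. Both H1.3-labelled arrays were below both vector arrays. The difference was -0.57 ± 0.12 (SE), 1.48-fold lower, with a 95% interval of -0.85 to -0.28 and an adjusted p of 0.111. With an intensity trend and a robust prior in limma the adjusted p was 0.0344, the 1 setting in which a member passed.

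A second cluster annotated to EPCAM gave the same picture, at 11.44 and 11.41 with vector alone and 10.93 and 11.01 on the H1.3-labelled arrays, a difference of -0.46 ± 0.11 (SE, adjusted p 0.158). The 20 clusters with the nearest identifiers to this second cluster all belonged to genes of chromosome 2, where RefSeq places EPCAM, and those nearest to the first all to genes of chromosome 4. The first stands for the gene because its mean was higher, and whether it reads a copy of EPCAM elsewhere was not tested. The clusters used for KRT18 and CD24 likewise had their nearest identifiers on another chromosome. These were chromosome 9 for KRT18 (20 of 20) and chromosome Y for CD24 (16 of 20), and what these clusters read was not tested. For 37 of the 40 genes the nearest identifiers lay on the gene's own chromosome.

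CDH1, the gene for E-cadherin and the core of the adherens junction, had 1 of the smallest differences. It was singled out after its values were seen, for this role. It measured 10.25 and 10.24 with vector alone and 10.32 and 10.19 on the H1.3-labelled arrays. The groups overlapped, and the difference was 0.01 with a 95% interval of -0.27 to 0.29 (adjusted p 0.985).

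The largest difference among the tight junction genes was that of CLDN16, a claudin known for magnesium reabsorption in the kidney. It measured 8.82 and 10.19 with vector alone and 10.23 and 10.45 on the H1.3-labelled arrays. The lower vector array, replicate 1, stood far from the other 3. The difference was 0.84 ± 0.38 (SE, adjusted p 0.473), and without vector replicate 1 it was 0.15, without vector replicate 2 1.52.

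CLDN1, a broadly expressed barrier claudin that lies next to CLDN16, ran the same way over the arrays. It measured 9.65 and 10.23 with vector alone and 10.49 and 10.42 on the H1.3-labelled arrays. Vector replicate 1 was again the low one. The difference was 0.52 ± 0.19 (SE, adjusted p 0.356), and without vector replicate 1 it was 0.23, without vector replicate 2 0.805. In the RefSeq table CLDN1 lies within the annotated span of CLDN16, on the other strand, and whether the probes of either cluster read both transcripts was not tested. The next expressed gene on the CLDN16 side, P3H2, differed by 0.42, while the median over the 30 nearest expressed genes of CLDN16 was -0.05.

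CLDN12, a claudin without the usual scaffold-binding tail, measured 9.20 and 9.23 with vector alone and 9.46 and 9.62 on the H1.3-labelled arrays. The groups did not overlap, and the replicates of each lay close together. The difference was 0.33 ± 0.12 (SE, adjusted p 0.355), with a 95% interval of 0.04 to 0.61.

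CLDN3, a sealing claudin that is abundant in ovarian carcinoma, pointed the other way. It measured 11.06 and 10.78 with vector alone and 10.51 and 10.68 on the H1.3-labelled arrays. The groups did not overlap, by a margin smaller than the gap between the vector arrays. The difference was -0.33 ± 0.14 (SE, adjusted p 0.447), and without vector replicate 1 it was -0.185. CLDN4, its close relative and neighbour, differed by -0.07.

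CLDN6, an embryonic claudin that is expressed again in some carcinomas, was singled out after its values were seen because its arrays split by replicate number. It measured 8.82 and 9.43 with vector alone and 8.50 and 9.14 on the H1.3-labelled arrays. Replicate 2 was the higher in both groups, and the difference was -0.31 ± 0.26 (SE, adjusted p 0.738). With the replicate number as a block its unadjusted p was 0.0465 and its adjusted p 0.472.

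The other 8 tight junction and polarity genes on clusters of their own lay between -0.145 and 0.105, with adjusted p from 0.734 to 0.985. They were CLDN7, CLDN4, CLDN10, the scaffold genes TJP1 and TJP3, the MARVEL-domain gene MARVELD3, the tricellular junction gene LSR and the polarity gene CRB3. The shared OCLN and OCLNP1 cluster, which cannot be given to the occludin gene alone, differed by 0.05 (adjusted p 0.924). Of the 13 tight junction genes, 6 had a positive and 7 a negative difference.

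JUP, plakoglobin, which links desmosomal cadherins to the keratin cytoskeleton and also sits in adherens junctions, had the lowest difference of the desmosome genes. It measured 9.89 and 9.99 with vector alone and 9.56 and 9.64 on the H1.3-labelled arrays. Both H1.3-labelled arrays were below both vector arrays, at -0.34 ± 0.12 (SE, adjusted p 0.313).

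DSC2, a desmosomal cadherin, measured 11.10 and 10.62 with vector alone and 10.83 and 10.77 on the H1.3-labelled arrays. The latter lay between the vector arrays, and the difference was -0.06 ± 0.17 (SE, adjusted p 0.942). Its partner DSG2 differed by the same -0.06, and DSP (desmoplakin), PKP2 and PKP3 (plakophilins) lay between -0.14 and 0.10. Of the 6 desmosome genes, 5 had a negative difference and the median was -0.06.

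Among the keratins, KRT7, a type II keratin of simple epithelia that pathologists use to identify ovarian carcinoma, was the 1 with a positive difference. It measured 11.14 and 11.39 with vector alone and 11.50 and 11.67 on the H1.3-labelled arrays. The groups did not overlap, and the difference was 0.32 ± 0.14 (SE, adjusted p 0.439), or 0.195 without vector replicate 1.

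KRT8, the type II partner of KRT18 in simple epithelia, measured 13.13 and 12.80 with vector alone and 12.84 and 12.93 on the H1.3-labelled arrays. The groups overlapped, at -0.08 ± 0.14 (SE, adjusted p 0.898). The type I chains KRT18, KRT19 and KRT23 differed by -0.29, -0.25 and -0.11, with adjusted p from 0.560 to 0.820. Vector replicate 1 was the highest of the 4 arrays for KRT8, KRT18 and KRT19, and without it KRT19 differed by 0.02 and KRT18 by -0.095. The 2 other clusters that carry the symbol KRT18 differed by -0.185 and -0.23, the latter being shared with MIR622. The former had its nearest identifiers on chromosome 12, where RefSeq places KRT18.

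Both surface glycoproteins had a positive difference. MUC1, a transmembrane mucin, measured 9.01 and 8.81 with vector alone and 9.27 and 9.02 on the H1.3-labelled arrays, and the groups were barely apart. Its difference was 0.24 ± 0.14 (SE, adjusted p 0.603), and leaving out 1 array moved it to between 0.11 (without H1.3 replicate 1) and 0.36 (without H1.3 replicate 2). CD24, a heavily glycosylated surface protein, measured 11.08 and 11.06 with vector alone and 10.96 and 11.47 on the H1.3-labelled arrays, which lay on either side. Its difference was 0.15 ± 0.18 (SE, adjusted p 0.828).

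The lowest difference of all 40 genes was that of ST14, matriptase, a membrane serine protease of epithelia. It measured 9.42 and 9.38 with vector alone and 8.62 and 8.92 on the H1.3-labelled arrays. The groups were well apart. The difference was -0.63 ± 0.14 (SE), 1.55-fold lower, with a 95% interval of -0.95 to -0.31 and an adjusted p of 0.119.

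The genes next to ST14 on chromosome 11 were lower as well. Of the 21 expressed genes nearest to it, 15 before and the 6 that follow to the end of the chromosome, 21 were below 0, from -0.90 to -0.21, and their median was -0.57. In 7 of them the difference was as low as that of ST14 or lower. These values move with that of ST14, and their part in its difference was not tested.

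Transcripts of other genes of the matriptase system had small measured differences. SPINT2, a Kunitz-type inhibitor of matriptase, measured 12.35 and 12.33 with vector alone and 12.19 and 12.42 on the H1.3-labelled arrays. The groups overlapped, at -0.04 ± 0.13 (SE, adjusted p 0.957). The inhibitor gene SPINT1 differed by 0.065 and PRSS8 (prostasin, a protease activated by matriptase) by 0.04.

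RAB25, a small GTPase of apical recycling that is gained in ovarian carcinomas, measured 10.68 and 10.66 with vector alone and 9.91 and 10.47 on the H1.3-labelled arrays. Both of the latter were lower, replicate 1 far more so. The difference was -0.48 ± 0.19 (SE, adjusted p 0.381), and without H1.3 replicate 1 it was -0.20, without H1.3 replicate 2 -0.76. Its surroundings on chromosome 1 ran the other way: of its 30 nearest expressed genes, 24 had a positive difference, the median was 0.18 and none was as low as RAB25. AP1M2, an epithelial clathrin adaptor subunit, differed by 0.065.

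**Figure D3:**
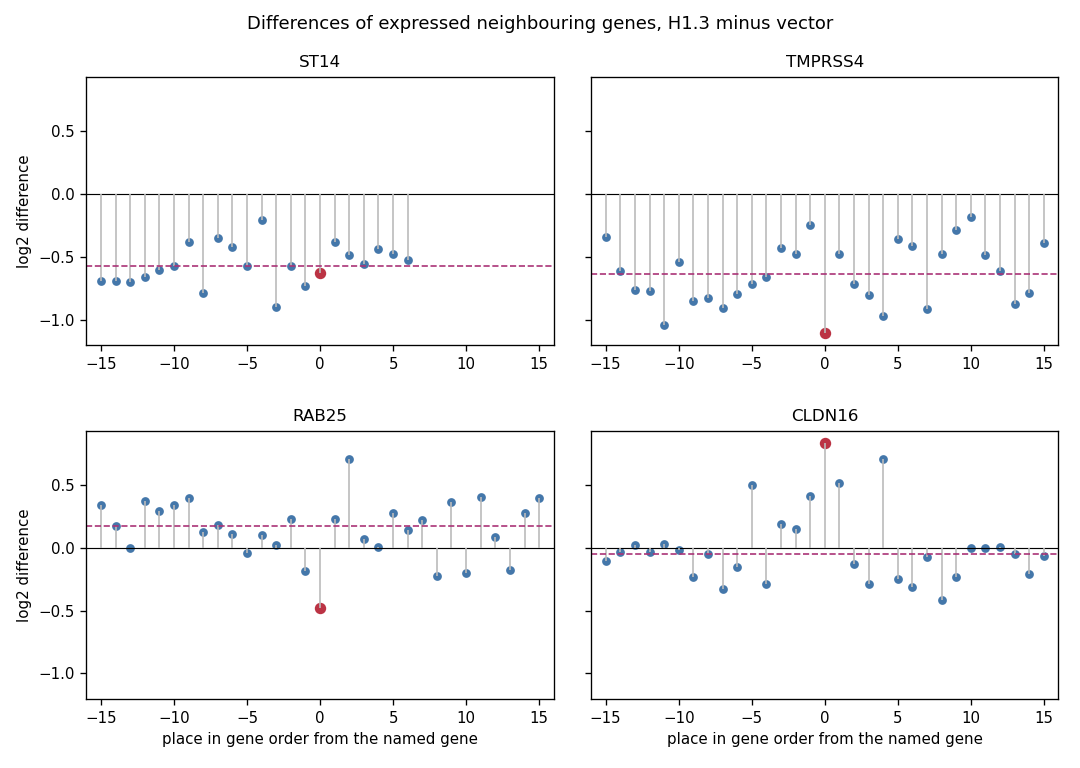
Log2 difference (y axis, H1.3-labelled arrays minus vector) of expressed genes around ST14, TMPRSS4, RAB25 and CLDN16 by their place in gene order (x axis, 15 to each side or to the chromosome end), with the named gene in red at place 0 and the median of the others dashed. All genes around ST14 and TMPRSS4 lie below 0, with medians of -0.57 and -0.64, whereas most around RAB25 lie above 0.

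Of the transcription and splicing factors, none reached an unadjusted p under 0.05. ELF3, an ETS factor of epithelia, measured 9.30 and 9.21 with vector alone and 9.65 and 9.38 on the H1.3-labelled arrays. The groups did not overlap, and the difference was 0.26 ± 0.14 (SE, adjusted p 0.541), or 0.125 without H1.3 replicate 1 and 0.395 without H1.3 replicate 2. Its 30 nearest expressed genes on chromosome 1 had a median of 0.185, and those of MUC1, on the same chromosome, a median of 0.195.

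EHF, another epithelial ETS factor, measured 10.31 and 9.95 with vector alone and 10 on both H1.3-labelled arrays. The latter lay between the vector arrays, at -0.13 ± 0.15 (SE, adjusted p 0.812). GRHL2, a grainyhead-like activator of CDH1 and claudin genes, differed by -0.22 (adjusted p 0.571), with a median of -0.21 over its nearest expressed genes. OVOL1, OVOL2 and the splicing factor gene ESRP2 lay between -0.115 and 0.085. Medians over their nearest expressed genes were -0.135, -0.28 and 0.055, in that order, where OVOL2 itself differed by 0.01.

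**Figure D4:**
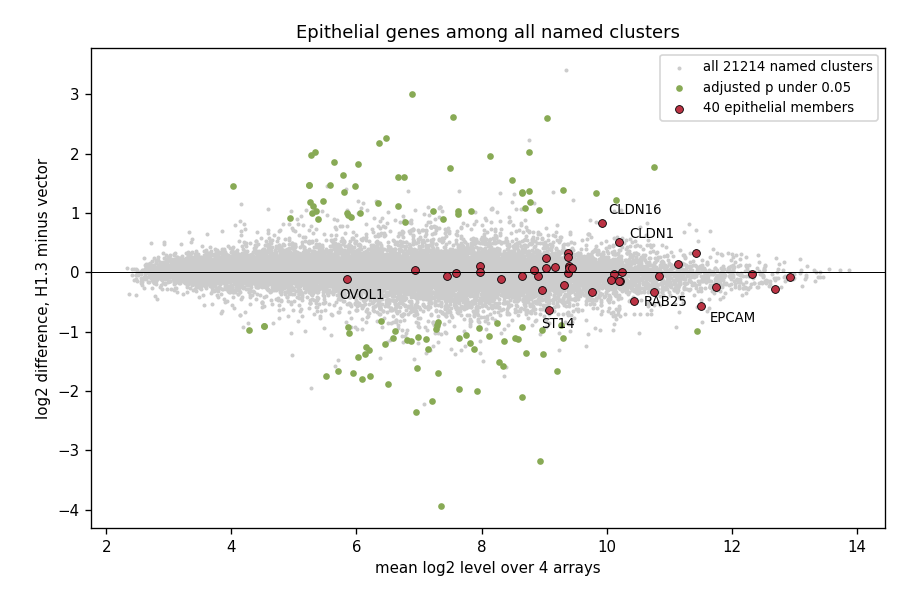
Log2 difference (y axis, H1.3-labelled arrays minus vector) against mean log2 level over the 4 arrays (x axis) for all 21214 named clusters (grey), those with an adjusted p under 0.05 (green) and the 40 epithelial genes (red). The epithelial genes lie in the brighter part of the plot and between -0.63 and 0.84, where no green point is an epithelial gene of the list.

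How the replicates spread bears on each of these values. The median gap between the replicates of a group was 0.145 over the 40 genes with vector alone and 0.135 on the H1.3-labelled arrays, against 0.13 and 0.15 over all clusters. The widest gap was that of CLDN16 in the vector arrays, 1.37. The signs of 21 of the 40 genes changed when 1 array was left out, none of which differed by more than 0.31 in size with all arrays. None of the 6 genes with an unadjusted p under 0.05 changed sign in any setting tried. The groups of all 6 were apart, so leaving out 1 array could not change their sign.

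Other genes of the same structures were read beside the members, with other epithelial factors and surface genes and 12 repressors of epithelial genes. Of these 138 genes, repressors included, 121 were measured on clusters of their own, and 1 fell and 0 rose at an adjusted p under 0.05. At an unadjusted p under 0.05, 8 were higher and 5 lower, 10.7% together against 11.5% of all clusters. Their median difference was 0.035.

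The 1 that fell was TMPRSS4, a membrane serine protease related to matriptase. It measured 9.06 and 9.13 with vector alone and 7.96 and 8.02 on the H1.3-labelled arrays. The groups were far apart and the replicates close, at -1.11 ± 0.11 (SE), 2.15-fold lower, with an adjusted p of 0.0228. The call was lost with all transcript clusters in the test (adjusted p 0.151) and with a replicate block (0.155). With that block limma called 0 clusters of any kind. Without 1 array the difference ran from -1.14 to -1.07. TMPRSS4 lies on the same chromosome as ST14, and of its 30 nearest expressed genes, 30 were below 0 with a median of -0.64, though none was as low as TMPRSS4 itself.

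In the other lists no gene passed, and the gene of smallest p is given for each. KRT4, a keratin of stratified epithelia, differed by 0.585 (adjusted p 0.142) among 17 other keratins. GRHL3, a grainyhead-like factor of barrier formation, differed by 0.605 (adjusted p 0.108) among 12 other epithelial factors. Differences were 0.455 for MAGI3, a scaffold of tight junctions, among 26 tight junction and polarity genes, 0.54 for ZYX (zyxin) among 11 adherens junction genes, 0.29 for DSC1 among 11 desmosome and plakin genes and 0.27 for CLDN20 among 14 other claudins, with adjusted p from 0.227 to 0.452. MAGI3 differed by 0.29 without vector replicate 2, and ZYX by 0.34 without vector replicate 1.

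The repressors of epithelial genes, 12 measured, included SNAI1, SNAI2, ZEB1, ZEB2 and TWIST1. Of these 12, 7 lay below the median level of named clusters, none reached an unadjusted p under 0.05, and their differences lay between -0.235 and 0.25. PRRX1, a mesenchymal homeobox factor, had the smallest p (adjusted p 0.487).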

How the data were processed

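The values deposited by the authors are log2 levels of 33297 transcript clusters on each array. Per the submitters' processing notes, the tools were RMA and Affymetrix Expression Console, with versions and genome build not given in the sources used here. In general, RMA corrects background, equalises array distributions and summarises probes, and single probes were not analysed here. Median log2 values per array lay between 6.21 and 6.27.

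The series' description names an Affymetrix human exon array, whereas the annotation table that pairs these cluster identifiers with genes is that of a human gene array; which array was hybridised was not settled here. Symbols came from the platform annotation, updated through gene identifiers to RefSeq (GRCh38.p14): 19460 clusters had 1 symbol, 1754 several, and 12083 were unnamed here. A gene with several clusters of its own is represented by that of highest mean.

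Vector and H1.3-labelled arrays were fitted in limma 3.58.1 under R 4.3.3 (lmFit, eBayes, two-sided, no covariate), with Benjamini-Hochberg adjustment over the 21214 named clusters. The fit had 2 residual and 5.16 prior degrees of freedom. All adjusted p-values are limma's. The steps were tested on simulated data (6 false calls, 0 calls with nothing changed). Neighbours were the 15 genes on each side in RefSeq order with a mean level of at least 6.84. Values in every array are given for members with an unadjusted p under 0.05 and, in each role, for the member of highest mean and that of largest difference; of other lists, the gene that passed or that of smallest p. Members and lists were chosen with earlier results of these data known. Alternatives changed the moderation, scaling, filter, clusters tested, threshold and cluster choice, added a replicate block or left out each array. Figures were drawn with matplotlib 3.10.9.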

Additional observations from a re-analysis of the deposited data

How the results depend on the processing

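Members called stayed at 0 higher and 0 lower in all refits but 1, an intensity trend with a robust prior, where 1 was lower (EPCAM, adjusted p 0.0344, at the same difference of -0.57). At limma's unadjusted p under 0.05, fits of all 4 arrays had 2 to 4 members higher and 3 to 5 lower. The share over all clusters ran from 8.93% to 16.2%. The most members, 4 higher and 5 lower, were with the replicate block, against 10.3% of all clusters. The median difference of the members moved by less than the spread between arrays (0.081) in all refits. That spread is larger than the median of -0.035, so a change of sign can fall within it. Without vector replicate 1 the median was 0.0075. Counts over all clusters, 51 higher and 56 lower, became 107 and 138 with an intensity trend and robust prior, 135 and 176 at an adjusted p under 0.10, 1 and 3 when unnamed clusters were tested too, 6 and 19 when dim clusters (under the median level) were dropped, and 19 and 31 when arrays were shifted to one median. A repeated quantile normalization gave 29 higher and 38 lower. The 1 lower gene of the other lists became 0 with all transcript clusters and 2 at an adjusted p under 0.10. The cause was not tested. Leaving out each array gave 0 to 0 for all these counts, and clusters at an unadjusted p under 0.05 numbered 1292 to 2367, a lone array being assumed to vary like the other group. PKP2 differed by 0.016 after a second quantile normalization.

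When the replicate number entered as a replicate block, limma called 0 clusters higher and 0 lower, with 2195 at an unadjusted p under 0.05. Of the other lists, 0 genes were lower. Differences between replicates 1 and 2 correlated at 0.06 between the groups across clusters (0.25 across the 40 members), and no label names a batch that same-numbered arrays share. The arrays were therefore treated as unpaired.

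When each array was left out in turn, differences ran from -0.07 to 0.20 for AP1M2, from -0.11 to 0.40 for CD24, from -0.055 to 0.075 for CDH1, from -0.06 to 0.13 for CLDN10, from -0.215 to 0.075 for CLDN4, from -0.625 to 0.015 for CLDN6, from -0.30 to 0.18 for DSC2, from -0.31 to 0.05 for EHF, from -0.075 to 0.245 for ESRP2, from -0.52 to 0.02 for KRT19, from -0.245 to 0.085 for KRT8, from -0.095 to 0.025 for LSR, from -0.025 to 0.005 for MARVELD3, from -0.255 to 0.025 for OVOL1, from -0.06 to 0.08 for OVOL2, from -0.06 to 0.05 for PKP2, from -0.03 to 0.23 for PKP3, from -0.07 to 0.15 for PRSS8, from -0.035 to 0.165 for SPINT1, from -0.15 to 0.08 for SPINT2, from -0.015 to 0.225 for TJP1. None of these genes was called in any fit.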

Other observations

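Several epithelial genes outside the members had differences of 0.60 or more in size without passing the test. TSPAN1, a tetraspanin of epithelial surfaces, measured 7.63 and 7.96 with vector alone and 6.01 and 6.85 on the H1.3-labelled arrays, a difference of -1.37 ± 0.26 (SE, limma adjusted p 0.0925). Its 30 nearest expressed genes had a median of 0.03, and none was as low. ZNF750, a zinc finger factor of epidermal differentiation, measured 7.23 and 6.88 against 6.41 and 6.01, a difference of -0.845 ± 0.18 (SE, adjusted p 0.111). GRHL1, a grainyhead-like factor, measured 8.18 and 7.67 against 8.60 and 8.45, a difference of 0.60 ± 0.18 (SE, adjusted p 0.231), or 0.345 without vector replicate 2. GRHL3 likewise had a positive difference and GRHL2 a negative one. These genes were picked after their values were seen.

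MUC16, the gene for the CA125 antigen, split by replicate number as CLDN6 did. It measured 10.21 and 10.82 with vector alone and 10.24 and 10.80 on the H1.3-labelled arrays, so that the replicates differed more than the groups.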
